A study of Mus musculus with 4 samples.

Results

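The hearts of mice without the mineralocorticoid receptor in cardiomyocytes were compared with wild-type hearts after both had received deoxycorticosterone and salt. Gene expression was measured in whole heart on Illumina mouse expression bead arrays, 1 array for each of 4 pools of RNA, and each pool held RNA of 8 animals. Members were the probes with a gene symbol whose intensity was above the 99th percentile of 1339 odorant, vomeronasal and taste receptor probes on both DOC/salt arrays, since those receptor genes are not normally active in heart. Of 25697 probes in the whole table, 23978 had a symbol and 7695 of these (32.1%) were members. They measured 6092 of the 16593 genes that had a named probe.

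All mice carried the floxed mineralocorticoid receptor allele in both copies (MR flox/flox) on the C57Bl6 background, were 8 to 9 weeks old, and had 1 kidney removed before the treatment period of 8 days. The wild-type (WT) groups carried the floxed allele without Cre, and the cardiomyocyte-null (CM-MRKO) groups carried it with MLC2v Cre. MLC2v is the ventricular myosin light chain, so Cre acts in ventricular cardiomyocytes, while the endothelial cells, fibroblasts and leukocytes of the same heart keep their receptor. A control with Cre and no floxed allele was not analysed here. The DOC/salt pools of the 2 genotypes were compared with each other, and a vehicle pool of each genotype gave the background. One protocol field gives vehicle for every sample, so the groups were taken from the titles and the treatment labels.

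The mineralocorticoid receptor is a nuclear receptor that binds aldosterone, deoxycorticosterone and glucocorticoids and then regulates transcription in the nucleus. Cardiomyocytes contain little of the enzyme that inactivates glucocorticoids, so the receptor there is largely occupied by glucocorticoid under basal conditions. Deoxycorticosterone with a high salt intake after removal of a kidney is a standard rodent model of mineralocorticoid excess, in which hypertension, infiltration by leukocytes and perivascular and interstitial fibrosis of the heart develop.

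With 1 pool on each side there was no spread between animals to set a difference against, so no p-value is given and a gene was counted where its difference reached 1.5-fold, a log2 difference of 0.585. Differences are CM-MRKO minus WT under DOC/salt on the log2 scale after background correction and quantile normalization, and intensities are the deposited values. Where 4 intensities are listed, the WT pools come first and the CM-MRKO pools after them, each with vehicle before DOC/salt. Over the 6092 genes the median intensity was 192.9 on the WT vehicle array and 277.2, 282.1 and 302.0 on the others in that order, so intensities do not compare directly across arrays, and statements on which pool was highest or lowest refer to normalized log2 values. The detection limits lay at 113.5 on the WT DOC/salt array and 121.6 on the CM-MRKO DOC/salt array, and 7937 and 8318 named probes were above them. Genes that passed the limit on 1 of those arrays only, 161 on the WT array and 460 on the CM-MRKO array, are given by intensity with no fold. Heart tissue was checked through cardiomyocyte genes: Myh6, the alpha myosin heavy chain, read 10950.1, 14751.6, 15804.4 and 16809.2, and Actc1, cardiac alpha actin, read 13192.3, 16464.1, 18205.5 and 18225.8. The receptor gene itself had no named probe in the table, so the deletion could not be checked here. Myl2, whose promoter drives Cre, read 17284.1, 15900.9, 19023.6 and 21082.8, a difference of 0.25 between the DOC/salt pools.

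Few genes reached 1.5-fold between the CM-MRKO and WT hearts under DOC/salt. Of 6092 genes, 30 (0.492%) were higher and 42 (0.689%) were lower in CM-MRKO by 1.5-fold, together 72 (1.18%), and 2 were higher and 8 lower by 2-fold. Genes of the interferon response and of platelets were the main named groups on the lower side, and the higher genes included S100a8, the natriuretic peptide gene Nppb, the cytokine receptor gene Tnfrsf12a, the cytokine gene Il15 and elastin. With the deposited intensities, neither background corrected nor normalized, the split turned from 30 higher and 42 lower, 41.7% higher, to 24 higher and 9 lower, 72.7% higher, with the median of all genes at 0.126. With quantile normalization and no background correction it was 7 higher and 15 lower.

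The median difference over all genes was 0.01 with an SD of 0.21, 51.3% of genes lay above 0, and the 5th and 95th percentiles were -0.33 and 0.33. Of the 72 genes, 24 were at 2 times the limit or more on both arrays, and the other 48 were nearer to it on at least 1. Just inside the threshold were Uros at -0.59, a gene of heme synthesis, and Vps33a at 0.59, a gene of lysosomal transport. Just outside it were Ddit4 at -0.57 and Nppa at 0.57. The plot of difference against brightness shows where the named genes lie.

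**Figure D1:**
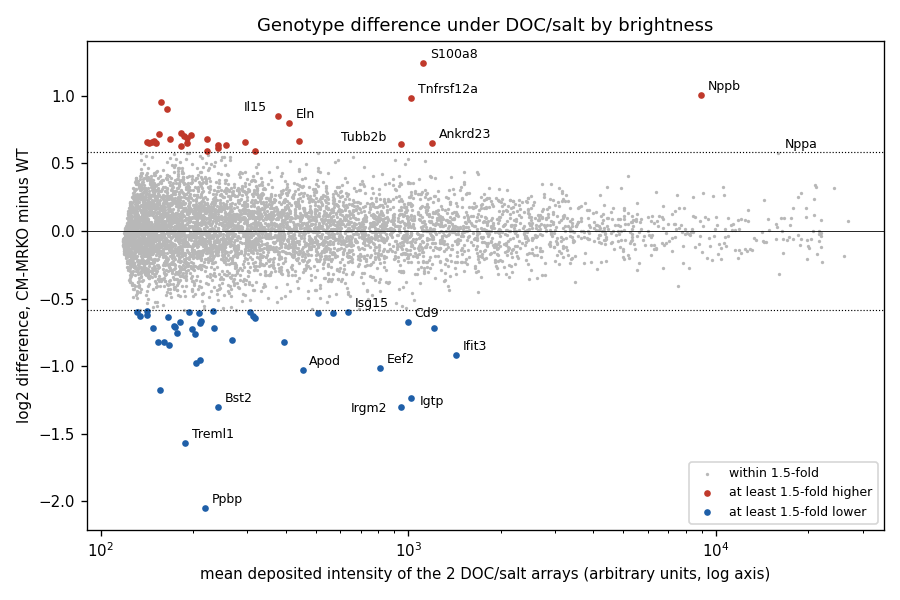
Each point is 1 of 6092 genes, with its mean deposited intensity over the DOC/salt arrays on the x axis (log axis) and its log2 difference, CM-MRKO minus WT, on the y axis; dotted lines mark 1.5-fold. Most genes lie within the lines, and Ppbp and Treml1 lie lowest among dim genes while Nppb lies high among the brightest.

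Several genes induced by interferons were lower in the CM-MRKO DOC/salt pool. Interferons are cytokines of antiviral defence that signal through JAK kinases and STAT factors to switch on effector genes, and type II interferon from lymphocytes also drives the large GTPases that attack intracellular pathogens. Of 43 interferon list members above the limit on both arrays, 11 were lower and 0 higher by 1.5-fold, where 0.689% of all genes were lower, and 34 lay below 0. The median over the 43 was -0.28 against 0.01 over all genes. With the deposited intensities, neither corrected nor normalized, 4 of the 43 were lower, and with quantile normalization but no background correction 7 were.

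The immunity-related GTPases, which disrupt the vacuoles of intracellular pathogens, differed most. Irgm2 read 370.1, 1294.4, 666.4 and 602.8 and was 2.46-fold lower in CM-MRKO under DOC/salt (-1.30). After normalization WT DOC/salt stood alone at 10.16, and the other 3 pools lay between 8.86 and 9.11. Igtp, also called Irgm3, read 276.3, 1380.5, 802.7 and 668.4 and differed by -1.24, with WT DOC/salt highest and WT vehicle lowest. Irgm1 read 334.0, 1443.0, 1077.1 and 974.5 and differed by -0.72 on its brightest probe, but by -0.14 on its second and by -0.43 in the mean of its probes, below 1.5-fold. WT DOC/salt was again highest and WT vehicle lowest, at 10.33 and 8.70. Irgm2 and Igtp are closely related in sequence, and signal shared between their probes could not be told apart here.

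Guanylate-binding proteins are a second family of interferon-induced GTPases. Gbp3 read 203.0, 471.8, 285.8 and 316.2 and differed by -0.82, with a second probe at -0.59. WT DOC/salt was at 8.58 after normalization and the other 3 pools between 7.68 and 7.76. Gbp2 at -0.38 and Gbp7 at 0.10 did not reach 1.5-fold. Across the 6 GTPases above the limit, 4 were lower, 5 lay below 0 and the median was -0.77. With the mean of all probes of a gene the median was -0.57, and with the deposited intensities also -0.57, short of 1.5-fold.

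Among 23 effectors of the type I response, 5 were lower, 0 higher and 19 below 0, with a median of -0.34. Bst2, the tether that holds budding virus particles at the cell surface, read 215.1, 308.6, 221.7 and 173.5 and differed by -1.30. Ifit3, which binds other antiviral IFIT proteins, read 526.1, 1801.3, 902.1 and 1064.6 and was 1.89-fold lower (-0.92), with a second probe at -0.48. The patterns differed after normalization. For Bst2 the WT pools lay together at 7.87 and 7.85 and CM-MRKO DOC/salt was lowest at 6.55. For Ifit3 WT DOC/salt stood alone at 10.67 above 9.45 to 9.75 in the others. In deposited intensity the 2 vehicle pools of Bst2 were close, at 215.1 and 221.7. Where the vehicle pools lie was not checked under other processing.

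Ifi35 read 169.0, 242.7, 257.7 and 164.8, a difference of -0.98, with CM-MRKO DOC/salt alone low at 6.43 against 7.32 or more in the other 3 pools. Oas2, which makes the oligoadenylate that activates an antiviral ribonuclease, read 224.5, 355.4, 243.1 and 270.2 and differed by -0.63. Isg15, a ubiquitin-like protein attached to other proteins, read 356.9, 735.6, 465.7 and 538.8 and differed by -0.60. For Oas2 and Isg15 both WT pools lay above both CM-MRKO pools, and each gene passed 1.5-fold in 3 of 6 alternatives of background and scaling. Oas2 lies near Myl2, whose promoter drives Cre. Of the 100 measured genes nearest Myl2 in gene order, 50 on each side, 2 reached 1.5-fold, Oas2 and Vps33a, against 1.18% of all genes. Whether this position bears on the Oas2 difference was not tested. Members that did not reach 1.5-fold included Usp18, which removes Isg15 from proteins, at -0.53 with a second probe at -0.70, Rsad2 (viperin) at -0.43, Ifi27l2a at -0.37 and Parp14 at -0.34. The 4 effectors above 0 were Lgals9 at 0.25, Zbp1 at 0.18, Adar at 0.17 and Ifitm2 at 0.05.

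Among 14 receptors, kinases, sensors and transcription factors of the pathway, 2 were lower, where 0.689% of all genes were, 10 lay below 0 and the median was -0.15. Neither call held throughout: Irf7 passed in 3 and Irf9 in 2 of 6 alternatives of background and scaling. Irf7, the factor that amplifies type I interferon production, read 110.1, 200.6, 153.7 and 160.3 and differed by -0.68. Irf9, a DNA-binding factor of the interferon response, read 177.7, 344.7, 245.3 and 268.8 and differed by -0.60, with a second probe at -0.81. Both factors stood highest in WT DOC/salt, Irf7 at 7.05 against 6.05 to 6.41 and Irf9 at 8.05 against 7.40 to 7.45. The receptor genes Ifngr1 at 0.08, Ifngr2 at 0.03 and Ifnar2 at -0.21, and Stat2 at -0.10 and Stat3 at -0.06, did not reach the threshold.

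**Figure D2:**
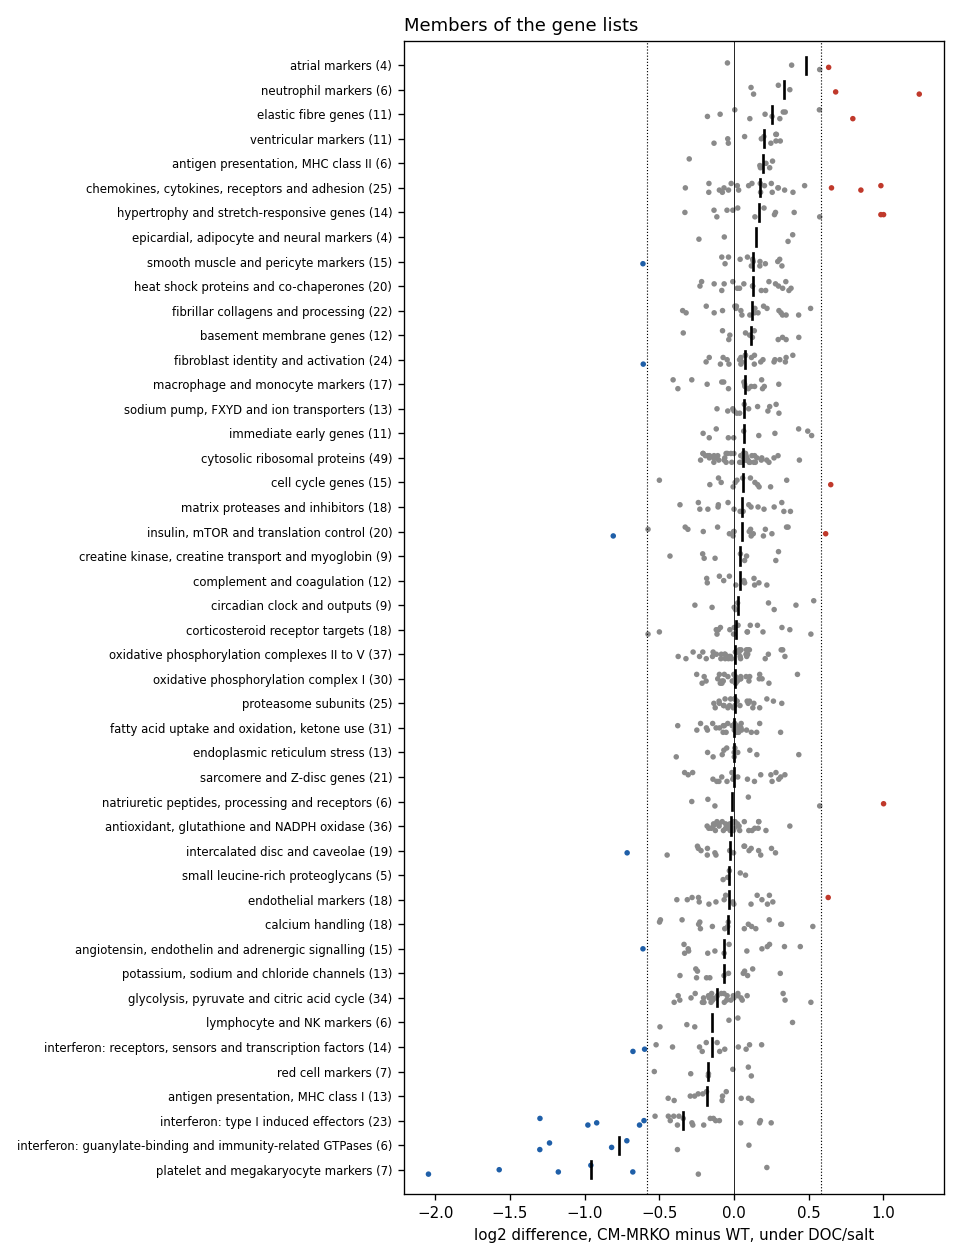
Each point is 1 gene of a list, placed by its log2 difference, CM-MRKO minus WT under DOC/salt, on the x axis, with the number of genes in brackets; bars mark list medians and dotted lines 1.5-fold. Interferon and platelet members lie mostly left of 0, and neutrophil, atrial and elastic fibre members mostly right of it.

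Interferon-stimulated genes carry the interferon-stimulated response element, a sequence that interferon regulatory factors bind, so the promoters of the lower genes were read. Promoter windows of 250 bases before to 50 after the gene start came from RefSeq (GRCm38.p6), and 4978 of the 6092 genes had one. The element was searched as 2 copies of GAAA with any 2 bases between them, on both strands, and adjoining matches may overlap. It was in the window of 187 of the 4978 (3.76%), of 7 of the 10 lower interferon genes with a window, and of 10 of the 24 interferon members that did not reach 1.5-fold (41.7%). It was also in 1 of 24 lower genes outside the interferon lists (4.17%) and in 1 of 21 higher genes (4.76%). The 7 were Bst2, Gbp3, Ifit3, Igtp, Irgm1, Irgm2 and Isg15, and no match lay in the windows of Ifi35, Irf7 and Irf9. The windows of 5 of them, 3 immunity-related GTPases and 2 effectors, are shown as examples of where the matches lie, 5′ to 3′ along the gene's strand, with the element in capitals.
Irgm2, chr11:58214727-58215026, plus strand: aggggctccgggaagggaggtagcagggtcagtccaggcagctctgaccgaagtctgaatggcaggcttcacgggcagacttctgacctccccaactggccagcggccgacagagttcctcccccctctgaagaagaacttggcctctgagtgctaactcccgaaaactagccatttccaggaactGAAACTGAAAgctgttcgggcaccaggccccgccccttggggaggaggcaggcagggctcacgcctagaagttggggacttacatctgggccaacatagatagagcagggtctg
Igtp, chr11:58199306-58199605, plus strand: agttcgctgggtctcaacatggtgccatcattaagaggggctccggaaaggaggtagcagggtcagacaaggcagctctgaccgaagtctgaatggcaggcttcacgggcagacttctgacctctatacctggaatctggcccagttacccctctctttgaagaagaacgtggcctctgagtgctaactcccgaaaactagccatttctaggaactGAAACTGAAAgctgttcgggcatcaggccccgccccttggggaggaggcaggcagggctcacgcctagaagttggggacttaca
Irgm1, chr11:48871371-48871670, minus strand: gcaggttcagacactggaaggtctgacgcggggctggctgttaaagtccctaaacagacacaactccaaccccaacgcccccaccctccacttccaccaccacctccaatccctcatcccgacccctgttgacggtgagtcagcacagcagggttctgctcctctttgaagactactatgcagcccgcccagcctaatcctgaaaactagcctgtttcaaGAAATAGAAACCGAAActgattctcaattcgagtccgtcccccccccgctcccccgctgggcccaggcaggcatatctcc
Bst2, chr8:71537423-71537722, minus strand: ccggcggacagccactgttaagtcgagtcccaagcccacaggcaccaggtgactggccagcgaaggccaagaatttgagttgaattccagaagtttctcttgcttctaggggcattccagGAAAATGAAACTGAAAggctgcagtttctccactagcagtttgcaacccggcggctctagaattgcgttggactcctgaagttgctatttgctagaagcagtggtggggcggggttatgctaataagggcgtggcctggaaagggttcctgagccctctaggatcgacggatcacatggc
Ifit3, chr19:34583279-34583578, plus strand: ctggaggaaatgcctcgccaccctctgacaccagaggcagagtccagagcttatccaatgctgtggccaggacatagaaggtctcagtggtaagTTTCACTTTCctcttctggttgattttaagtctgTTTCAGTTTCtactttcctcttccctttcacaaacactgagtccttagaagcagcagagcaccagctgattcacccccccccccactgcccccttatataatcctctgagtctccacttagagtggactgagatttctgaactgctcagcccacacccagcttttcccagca
In Irgm2 the first match began 64 bases before the gene start, in Igtp 34, in Irgm1 30, in Bst2 130 and in Ifit3 156. The Irgm2 and Igtp windows, laid against each other at a single offset without gaps, were identical at 184 of 270 bases (68.1%). An alignment with gaps was not made, and it could give a higher share. The hormone response element, searched as AGAACA and TGTTCT with any 3 bases between them, is its own reverse complement. It was in 1 of the 4978 windows and in none of the windows of genes called higher or lower. So rare a pattern cannot show whether the called genes hold receptor sites. Also searched were GAS (TTC and GAA with any 3 bases between) and the E-box (CACGTG). GAS was in 407 of 4978 windows (8.18%), 4 of 10 lower interferon genes and 9 of 24 uncalled members (37.5%). It was in 5 of 21 higher genes (23.8%) and in 0 of 24 lower genes outside the interferon lists. The E-box was in 626 of 4978 (12.6%), 6 of those 24 (25.0%), 3 of 21 higher genes (14.3%) and 0 of 34 interferon members. GAS matches are not marked in the windows shown. A match describes letters in a window and not a bound site.

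No antigen presentation gene on the lists reached 1.5-fold. MHC class I displays peptides from inside the cell and is induced by interferon, and of 13 class I genes 10 lay below 0 with a median of -0.18. H2-T23 at -0.44, Tapbp at -0.40 and B2m, the invariant light chain, at -0.29 were the lowest. The class I gene H2-Q8, not on the list, read 125.2, 152.3, 125.6 and 129.8 and was lower, at -0.62, near the limit. Of 6 class II genes, which present peptides taken up by professional antigen-presenting cells, 5 lay above 0 with a median of 0.20, among them Cd74 at 0.24 and H2-Eb1 at 0.21.

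Several platelet and megakaryocyte genes were lower in the CM-MRKO DOC/salt pool. Platelets are fragments of megakaryocytes that carry messenger RNA and circulate in blood. Fewer cells of a type and less RNA per cell cannot be told apart in pooled tissue RNA. Of 25 markers with a probe, 7 were above the limit on both arrays, of which 5 were lower, where 0.689% of all genes were, 0 higher and 6 below 0, with a median of -0.96. With the deposited intensities, neither corrected nor normalized, 3 of the 7 were lower, and with quantile normalization alone 5 were. The median was -0.23 over the markers at 2 times the limit or more on both arrays.

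Ppbp, the platelet chemokine precursor, read 106.6, 307.8, 118.4 and 127.8 and was 4.13-fold lower (-2.05), the lowest difference of all 6092 genes, with a second probe at -1.07. Treml1, a receptor of platelet granules, read 100.1, 245.4, 110.2 and 131.0 and was 2.97-fold lower (-1.57). Itga2b, the integrin chain of the fibrinogen receptor, read 118.1, 187.4, 126.5 and 124.9 (-1.18). For all 3 genes WT DOC/salt stood highest, and the other 3 arrays lay near or under the limit, as Ppbp shows at 7.84 against 5.72 to 5.89. The limits on the vehicle arrays were 108.6 in WT and 119.4 in CM-MRKO. Ppbp and Treml1 were under the limit on both vehicle arrays.

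Alox12, the platelet lipoxygenase, read 114.0, 251.0, 138.5 and 170.7 and differed by -0.96. Cd9, a tetraspanin abundant on platelets and on other cells, read 488.9, 1171.0, 857.9 and 819.3 and differed by -0.68. WT DOC/salt was the highest pool for both, Cd9 at 10.02 against 9.34 to 9.51. Fermt3, which activates integrins in blood cells, was at -0.24 and Vwf, made by endothelium as well, at 0.22.

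Above the limit on the WT DOC/salt array and not on the CM-MRKO DOC/salt array were Gp9 at 227.8 against 116.6, Mpig6b at 180.7 against 120.3, Gp1bb at 143.5 against 113.6 and Nfe2 at 118.5 against 110.1. The other 14 markers with a probe, among them Pf4, Itgb3, Gp5, Clec1b and Tubb1, were at or under the limit on both. The deposited intensities summed over the 7 markers were 1665.3, 3151.8, 2382.4 and 2571.2. The larger part of each sum came from Cd9, Fermt3 and Vwf, and Cd9 and Vwf are also made by other cells. Red cell genes, another content of blood, did not follow in size: of 7 above the limit 0 reached 1.5-fold and the median was -0.17, with Alas2, the heme enzyme of red cell precursors, at -0.53 and the globin gene Hba-a1 at 0.12. How far blood in the tissue entered the platelet differences was not tested.

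**Figure D3:**
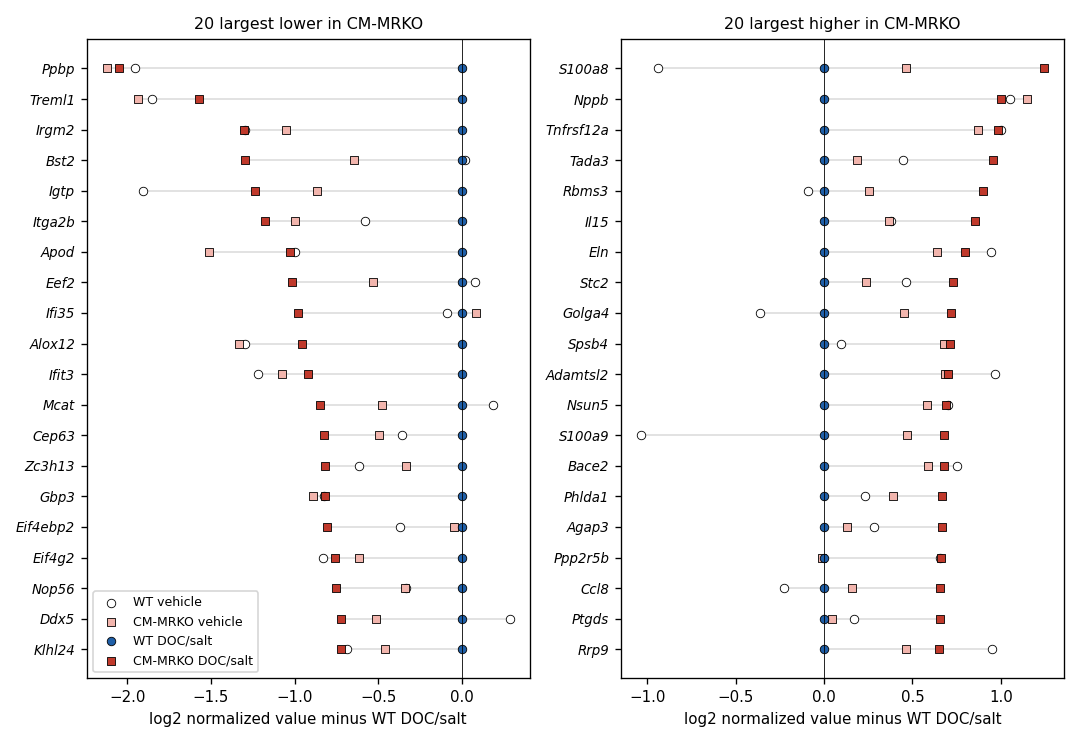
Normalized log2 value of each pool minus that of WT DOC/salt (x axis) for the 20 genes with the largest lower (left) and higher (right) differences, 1 symbol per pool. Ppbp, Treml1, Ifit3 and Gbp3 are below WT DOC/salt in all other pools, and Nppb, Tnfrsf12a and Eln above it in all other pools.

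The highest difference belonged to a gene of neutrophils and monocytes. S100a8, a calcium-binding protein released by neutrophils and monocytes, read 249.3, 660.9, 888.5 and 1578.5 and was 2.37-fold higher in CM-MRKO (1.24). Its partner S100a9 read 103.2, 175.4, 226.0 and 269.1 and was higher by 0.68. In both genes each CM-MRKO pool stood above each WT pool, and S100a8 ran from 8.17 in WT vehicle to 10.35 in CM-MRKO DOC/salt. On the WT vehicle array S100a9 was under the limit of 108.6. Of 18 neutrophil markers with a probe, 6 were above the limit on both arrays and all 6 lay above 0, 2 of them past 1.5-fold where 0.492% of all genes were, with a median of 0.34. S100a9 was at 0.47 with quantile normalization and no background correction and at 0.55 with an offset of 50, below 1.5-fold, and at 0.62 in the deposited intensities.

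Lcn2, an iron-binding protein of neutrophil granules and stressed epithelium, was at 0.38 with 114.3 on the WT DOC/salt array, just above its limit of 113.5, and Il1b was at 0.30. Retnlg at 106.8 and 199.0 and Ltf at 85.4 and 130.1, in WT and CM-MRKO under DOC/salt, were above the limit on the CM-MRKO array only. The defining granule and receptor genes Ngp, Camp, Mpo, Elane, Cxcr2 and Csf3r were under the limit on both arrays. Summed over the 6 markers the intensities were 1973.5, 2431.1, 2816.2 and 3766.3, and the part of neutrophil number in these values was not tested.

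Of 25 chemokine, cytokine, receptor and adhesion genes, 3 were higher, where 0.492% of all genes were, 0 lower and 17 above 0, with a median of 0.18. Tnfrsf12a, the receptor of the cytokine TWEAK, induced in stressed cardiomyocytes, read 830.0, 678.2, 1186.3 and 1362.9 and was 1.98-fold higher (0.99). Il15, which sustains natural killer cells and memory T cells, read 229.1, 273.2, 341.6 and 478.7 and was 1.80-fold higher (0.85). Ccl8, a monocyte chemokine, read 100.2, 116.7, 130.0 and 167.2 and was higher by 0.65, near the limit. Tnfrsf12a was low in WT DOC/salt alone, at 9.15 against 10.02 to 10.15, and Il15 was lowest in WT DOC/salt and highest in CM-MRKO DOC/salt. For Ccl8 both CM-MRKO pools stood above both WT pools, though it was under the limit of 108.6 on the WT vehicle array. Below the threshold were Nfkbia at 0.47, Cxcl1 at 0.34 and Cxcl9, which type II interferon induces, at -0.33.

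No macrophage, monocyte, lymphocyte or NK marker on the lists reached 1.5-fold. The 17 macrophage and monocyte markers had a median of 0.07, from Lyz1 at -0.41 to Folr2 at 0.30, and their summed intensities were 13704.0, 23011.3, 21346.9 and 22054.0. Ly86, a receptor partner on B cells and macrophages that was not on the list, read 111.4, 193.9, 178.6 and 153.8 and was lower, at -0.71. The 6 lymphocyte and NK markers above the limit had a median of -0.15, while Cd3e, Cd3d, Cd3g, Cd4, Cd8a, Ncr1 and Ptprc were under the limit on both arrays. Complement and coagulation genes, 12 in number, had a median of 0.04 and none past 1.5-fold.

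Among genes of the stretched and stressed cardiomyocyte, Nppb and Tnfrsf12a were higher in CM-MRKO under DOC/salt. Nppb, which encodes B-type natriuretic peptide and is released by stretched ventricle, read 8912.8, 5790.4, 13116.9 and 12169.5. WT DOC/salt stood apart from the rest, at 12.41 against 13.41 to 13.56 in the other 3 pools, and the level was 2.0-fold higher in CM-MRKO under DOC/salt (1.0). Nppa, the atrial natriuretic peptide that is re-expressed in stressed ventricle, read 11352.6, 11966.8, 18315.6 and 19892.5, a difference of 0.57 that did not reach 1.5-fold, again with WT DOC/salt lowest, at 13.52. The rest of the list, the processing enzymes and receptors Corin at -0.28, Furin at -0.17, Npr3 at -0.13 and Npr2 at 0.10, did not follow Nppb, and the median of the 6 was -0.02.

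Of 14 hypertrophy and stretch genes 2 were higher, Nppb and Tnfrsf12a, where 0.492% of all genes were, and the median was 0.17. Skeletal alpha actin, Acta1, a fetal gene of the hypertrophied heart, read 4939.8, 4204.1, 8179.4 and 6174.2 and was at 0.40, with WT DOC/salt lowest. Rcan1, a target of calcineurin, was at 0.27 with its second probe at 0.61, and Ankrd1, a stretch-induced titin partner, was at 0.14. Ankrd23, a relative of Ankrd1 at the same titin site and not on the list, read 787.9, 908.6, 1328.1 and 1486.8 and was higher by 0.65, with WT DOC/salt lowest at 9.61 against 10.05 to 10.26.

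Atrial and ventricular genes were compared because the amount of each chamber in a sample can vary. Myl4, the atrial light chain, read 200.5, 191.8, 259.0 and 288.4 and was higher by 0.63. The 4 atrial markers above the limit had a median of 0.48, with Stard10 at 0.39 and Clu at -0.04, and summed intensities of 14377.7, 16511.5, 22656.2 and 24989.3, which Nppa dominated. Of 11 ventricular markers 0 reached 1.5-fold and the median was 0.20, with Myl3 at 0.28 and Irx4 at 0.18. The share of atrial tissue in the pools was not tested.

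No gene on the sarcomere, calcium handling, ion channel or ion transport lists reached 1.5-fold. Over 21 sarcomere and Z-disc genes the median was 0.00, between Ldb3 at -0.33 and Tpm1 at 0.34. Calcium handling genes, 18 in number, ran from Cacna2d1, a calcium channel subunit, at -0.50 to Cacna1d at 0.53 with a median of -0.04, and Atp2a2, the pump that refills the sarcoplasmic reticulum, was at -0.06. The median was -0.07 over 13 ion channel genes and 0.07 over 13 genes of the sodium pump and ion transport, where Atp1b1 was at 0.02 and Fxyd1, its regulator phospholemman, at 0.16.

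No gene on the list of known corticosteroid receptor targets reached 1.5-fold. The median over the 18 above the limit was 0.02. Sgk1, a classical target of mineralocorticoid and glucocorticoid receptors, read 1571.7, 2251.4, 2748.3 and 2248.8. It lay between 10.90 and 11.27 in all 4 pools after normalization, and was at -0.11. Tsc22d3, called GILZ, read 412.9, 855.4, 812.4 and 907.4 and was at -0.03, and Per1, a clock gene induced by aldosterone, was at 0.00. At the ends of the list stood Ddit4, an inhibitor of mTOR signalling, at -0.57 and Pdk4, which restrains glucose oxidation, at 0.52. Clock genes had a median of 0.02, with the output factor Dbp, which varies with the time of day, at 789.1 and 1202.6 on the DOC/salt arrays and 0.54, below the threshold. The time of day of tissue collection is not stated in the labels.

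Of the matrix genes on the lists, elastin alone passed 1.5-fold. Eln, the core of elastic fibres, read 341.2, 299.4, 442.1 and 518.0 and was 1.74-fold higher (0.80), with WT DOC/salt lowest at 7.80 against 8.44 to 8.74. It was the 1 gene of 11 elastic fibre genes past the threshold, and 9 of the 11 lay above 0 with a median of 0.26, among them the microfibril gene Mfap4 at 0.57, Ltbp4 at 0.34 and Mfap2 at 0.33. Adamtsl2, a secreted binder of microfibrils, was not on the list and was higher by 0.70 at intensities of 172.5, 148.9, 210.3 and 225.5.

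Of 22 fibrillar collagen and collagen processing genes 0 reached 1.5-fold, 17 lay above 0 and the median was 0.12. Col1a1 read 179.1, 249.3, 222.1 and 340.0 and was at 0.43, with CM-MRKO DOC/salt highest at 7.89 and the others between 7.21 and 7.46. Col6a2 was at 0.51, Sparc, a collagen-binding protein, at 0.33, Serpinh1, the collagen chaperone, at 0.22 and the crosslinking enzyme Lox at 0.01. Basement membrane genes had a median of 0.12 over 12, matrix proteases and inhibitors 0.05 over 18, with Timp1 at 0.38, and small leucine-rich proteoglycans -0.03 over 5, where Dcn read -0.07 on its brightest probe and -0.59 on its second.

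Other cell types of the heart wall showed single genes. Among 24 fibroblast genes 1 was lower, Gsn, an actin-severing protein, at 499.7, 656.7, 546.6 and 482.2 and -0.61, and the median was 0.08. The activation gene Meox1 was at 0.27, and the identity genes Tcf21 and Pdgfra at 0.18 and -0.09. Among 15 smooth muscle and pericyte genes Rgs5, a pericyte brake on G-protein signalling, was lower at 331.5, 582.8, 595.5 and 431.7 and -0.61, while Acta2 was at 0.32 and the median was 0.13. Among 18 endothelial genes Plvap, of the diaphragms of endothelial openings, was higher at 205.7, 203.5, 249.5 and 308.5 and 0.63, and the median was -0.03. Cav2, a caveolar coat protein, read 160.9, 266.5, 199.0 and 199.3 and was lower, at -0.71, and its partner Cav1 was at -0.45, whereas Cav3 of muscle was at -0.03. Of the 19 intercalated disc and caveolar genes Cav2 alone passed.

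Eef2 was lower in CM-MRKO under DOC/salt, while no ribosomal protein gene reached 1.5-fold. Eef2, the elongation factor that moves the ribosome along the message, read 707.8, 1036.6, 749.9 and 582.4 and was 2.02-fold lower (-1.01). After normalization the WT pools lay together at 9.90 and 9.82 and CM-MRKO DOC/salt was lowest at 8.81. In deposited intensity WT vehicle, at 707.8, was nearer to CM-MRKO vehicle, at 749.9, than to WT DOC/salt, at 1036.6. The 3 Eef2 probes gave -1.01, -0.84 and -1.03. Eef2 passed 1.5-fold in all 6 alternatives of background and scaling, which covered the DOC/salt contrast only. Eif4ebp2, a repressor of cap-dependent translation, at -0.81, Eif4g2, an initiation factor, at -0.76, Nop56, of ribosomal RNA modification, at -0.75, and Ddx5, an RNA helicase, at -0.72, were also lower, at 154.4 to 221.1 in CM-MRKO DOC/salt, and passed in 3 to 5 of the 6. These genes were gathered after their values were seen and are no list of their own. Of them Eif4ebp2 is on the insulin, mTOR and translation control list. Mtor, the kinase that controls translation, was higher at 208.0, 192.8, 277.6 and 287.5 and 0.62. Of 49 cytosolic ribosomal protein genes 0 reached 1.5-fold and the median was 0.06. Of 20 insulin, mTOR and translation control genes 1 was higher, Mtor, and 1 lower, Eif4ebp2, both already given, with a median of 0.05.

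Apod, a lipid-binding apolipoprotein, read 217.9, 572.2, 242.3 and 334.7 and was lower, at -1.03, with WT DOC/salt highest at 8.89 against 7.37 to 7.89. The other lower genes on no list, Mcat, Cep63, Zc3h13, Klhl24, Ctsa, Skap2, Rnf114, Phf11d, Rab9, Lman1, Adhfe1, Pcyt1a, Lysmd1, Cyb5a and Uros, lay between -0.85 and -0.59, and none exceeded 361.1 on the WT DOC/salt array. On the higher side Tubb2b, a beta tubulin, read 722.5, 723.6, 1062.3 and 1168.8 and was at 0.64, with a second probe at 0.46, and Phlda1 read 260.8, 339.0, 433.9 and 541.6 and was at 0.67. WT DOC/salt was lowest in both, Tubb2b at 9.25 against 9.85 to 9.93. Tada3 at 0.95 and Rbms3 at 0.90, which follow Tnfrsf12a in the order of higher genes, read 195.0 and 204.5 on the CM-MRKO array, near the limit. Stc2, Golga4, Spsb4, Bace2, Agap3, Ppp2r5b, Ptgds, Rrp9, Pnck, Tyms, Sdc4, Cln3, Vps33a and Nsun5 lay between 0.59 and 0.73.

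No gene of energy metabolism on the lists passed 1.5-fold. Of 30 complex I genes and 37 genes of complexes II to V of oxidative phosphorylation 0 reached 1.5-fold, and both medians were 0.01. Fatty acid uptake and oxidation had a median of 0.00 over 31 genes. Among 34 genes of glycolysis, pyruvate use and the citric acid cycle 25 lay below 0 with a median of -0.12 and none past 1.5-fold, with Mdh1 at -0.40, Cs, citrate synthase, at -0.36 and Slc2a4, the insulin-responsive glucose transporter, at -0.14. Creatine kinase and creatine transport genes had a median of 0.04 over 9. Antioxidant genes, 36 of them, had a median of -0.02, endoplasmic reticulum stress genes 0.00 over 13 and proteasome genes 0.01 over 25.

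Heat shock genes had a median of 0.12 over 20, and Hspa1a, the inducible chaperone, was above the limit on the CM-MRKO DOC/salt array only, at 108.5 in WT and 239.4 in CM-MRKO. Immediate early genes, which respond within minutes to stimuli including handling of tissue, had a median of 0.07 over 11, with Junb at 0.52 and Egr1 at 0.49. Of 15 cell cycle genes Tyms, of thymidine synthesis, was higher and the median was 0.06. Angiotensin, endothelin and adrenergic genes, which include Rgs5, had a median of -0.06 over 15, and epicardial, adipocyte and neural markers 0.15 over 4, which turned to -0.23 among those at 2 times the limit. Of the metallothionein and zinc transport genes Mt1 at 0.16 and Slc39a7 at -0.15 were above the limit. Among genes above the limit on both arrays, which leaves out Hspa1a, none of the antioxidant, heat shock, endoplasmic reticulum stress, immediate early or proteasome lists reached 1.5-fold.

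Genes with several probes gave a measure of technical repeatability. For 1251 genes with a second member probe the spread between probes, taken as the SD of the paired differences divided by the square root of 2, was 0.19, and it was 0.21, 0.20 and 0.15 from the dimmest to the brightest of 3 equal classes of second probes. Across these genes the probes shared their direction in 713 (57.0%), and r was 0.28. Of 10 genes called lower that had a second probe, all 10 shared the direction and 4, Ppbp, Eef2, Gbp3 and Irf9, also passed 1.5-fold on it, where 1.28% of second probes were lower and 1.68% passed in either direction. The second probe of Irgm1, at -0.14, lay within the technical spread.

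Of 3 genes called higher with a second probe, Tubb2b and Agap3 kept the direction, at 0.46 and 0.09, Nsun5 did not, at -0.055, and none passed on the second probe, where 0.4% of second probes did. Some genes passed on a dimmer probe and not on the brightest one: Mylk3, a cardiac myosin kinase, at -0.47 and -0.85, Usp18 at -0.53 and -0.70, and Rcan1 at 0.27 and 0.61. Mtch1 gave 0.11 and -0.71, opposite in direction. The plot of probe pairs shows the pairs of the named genes.

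**Figure D4:**
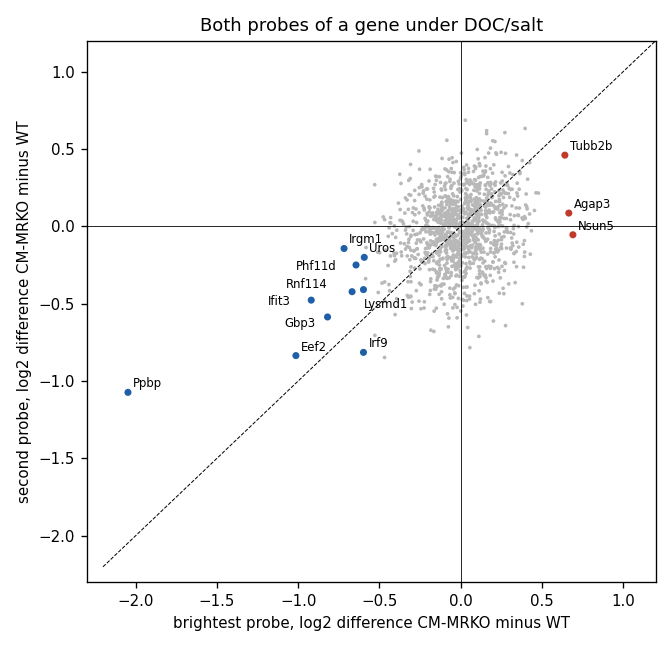
For 1251 genes with several member probes, the log2 difference of the brightest probe (x axis) against that of the second brightest (y axis), CM-MRKO minus WT under DOC/salt; colours mark genes past 1.5-fold on the brightest probe, and the dashed line marks equal values. Lower genes fall in the lower left, with Ppbp at -2.05 and -1.07, and the higher genes reach no more than 0.46 on the second probe.

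The position of the vehicle pools shows which of the DOC/salt pools stood out. Of the 30 higher genes, WT DOC/salt was the lowest of the 4 arrays in 23 and CM-MRKO DOC/salt the highest in 17, and of the 42 lower genes WT DOC/salt was the highest in 31 and CM-MRKO DOC/salt the lowest in 24. Over all genes WT DOC/salt was lowest in 26.2% and highest in 21.1%, and CM-MRKO DOC/salt was highest in 19.2% and lowest in 19.7%. The choice of genes by the DOC/salt contrast favours these positions, so they are a description. They were read under the main setting only. The CM-MRKO vehicle pool was nearer to CM-MRKO DOC/salt than to WT DOC/salt in 19 of the 30 and 32 of the 42, against 52.5% of all genes.

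The same contrast in the vehicle pools used separate animals and arrays, though all 4 arrays were normalized together. Among 5475 genes whose brightest probe was above the limit on all 4 arrays, 282 (5.15%) were higher and 108 (1.97%) lower in the CM-MRKO pool under vehicle, together 7.12%, and the SD of the differences was 0.37 against 0.21 under DOC/salt. The vehicle differences were thus wider than the DOC/salt differences, and the WT vehicle array had the lowest median intensity of the 4, 91.5 against 92.6 to 102.7. Under DOC/salt 26 of the 5475 (0.475%) were higher and 36 (0.658%) lower, together 1.13%. Of the 26 higher genes, 9 were also above 0 under vehicle and 1, S100a8, passed 1.5-fold the same way. Of the 36 lower genes, 22 were below 0 under vehicle, 7 passed 1.5-fold the same way and 3 the opposite way. Over all 5475 genes 41.2% lay above 0 and 58.6% below 0 under vehicle. Across genes r between the differences was -0.08, a description with no test, since genes are not independent replicates.

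**Figure D5:**
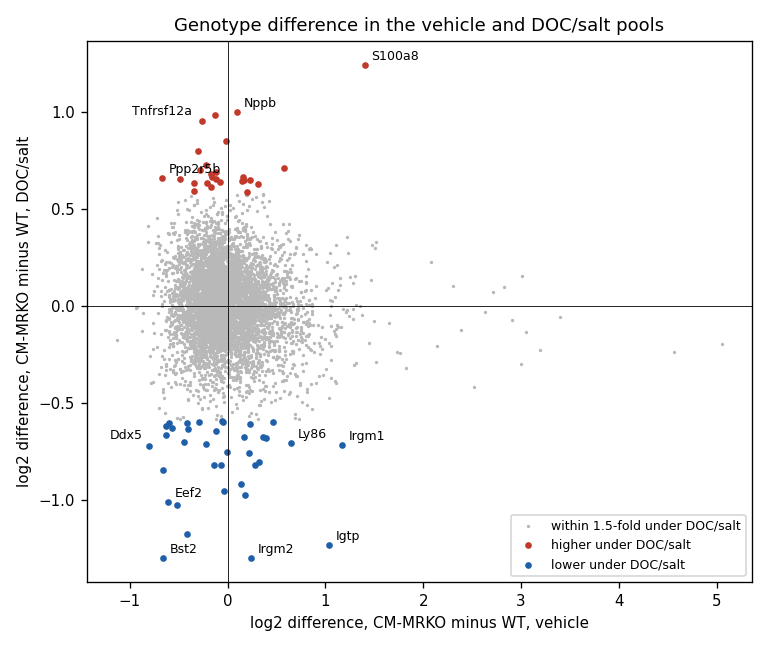
For 5475 genes above the limit on all 4 arrays, the log2 difference CM-MRKO minus WT under vehicle (x axis) against that under DOC/salt (y axis); colours mark genes past 1.5-fold under DOC/salt. The cloud is wider along the vehicle axis, and Igtp and Irgm1 lie to the right of 0 under vehicle and below 0 under DOC/salt.

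Past 1.5-fold under the main setting and under all 6 alternatives of background and scaling were 16 genes. The 7 higher ones were Ankrd23, Eln, Il15, Nppb, S100a8, Tnfrsf12a and Tubb2b, and the 9 lower ones were Apod, Bst2, Eef2, Ifit3, Igtp, Irgm2, Itga2b, Ppbp and Treml1. Over those alternatives Ppbp ran from -2.80 to -1.27, Nppb from 0.98 to 1.07, Igtp from -1.28 to -1.05 and S100a8 from 1.16 to 1.28, and Ppbp moved most of these 4.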

How the data were processed

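RNA of 8 hearts per group was pooled and hybridised to 1 bead array per group. The authors deposited linear probe intensities with the background left in, and Partek is named, per the submitters' processing notes, with no version; other steps and the build behind the probes are not stated in the labels. Not used were 4 columns of another table, whose names match no sample label. Background was corrected with normexp (maximum likelihood, offset 16), followed by quantile normalization over 4 arrays (limma 3.58.1, R 4.3.3), and values were put on the log2 scale; tables were made with pandas 2.3.3. A gene was represented by its brightest member probe, and 0 symbols changed on matching 23962 named probes to GRCm38.p6. The number of arrays limits the precision. The steps were tested on simulated data with known changes, put into probes brighter than 2 times the limit and with an assumed random spread. Of 100 changes of 1.5-fold 45.0% were called, of 100 changes of 2-fold 95.0%, and of unchanged probes 0.23%. Many true changes near 1.5-fold would therefore not be counted. The assumed spread held no variation between animals, so 0.23% is not the rate of false calls in these data. Named were the 30 largest differences per direction, list members past 1.5-fold, further members by size or brightness, genes at a threshold and genes with several probes. Nsun5, whose probes disagree in sign, and lower genes past the 30 largest are named to account for every called gene, after their values were seen. The members, the 47 lists and the rules were chosen with earlier results of these data known.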

Additional observations from a re-analysis of the deposited data

Results flagged for a closer look

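In 4 genes past 1.5-fold the genotype difference, CM-MRKO minus WT, lay past 1.5-fold in opposite directions under DOC/salt and under vehicle. With 1 pool per group the difference between the contrasts was not tested. Igtp was at -1.24 under DOC/salt and 1.04 under vehicle, a difference of -2.28. Irgm1 was at -0.72 and 1.17, a difference of -1.88. For the macrophage and B cell gene Ly86 the values were -0.71 and 0.65, a difference of -1.36. The phosphatase subunit gene Ppp2r5b went the other way, at 0.66 and -0.67, a difference of 1.33. All 4 rest in part on the WT vehicle array, on which Igtp read 276.3, Irgm1 334.0, Ly86 111.4 and Ppp2r5b 125.9.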

How the results depend on the processing

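No paired analysis was possible because each group was 1 pool, and leaving out a replicate was not possible for the same reason. Counts of genes higher and lower moved from 30 and 42 to 7 and 15 with quantile normalization and no background correction, 10 and 18 with an offset of 50, 106 and 116 with background subtracted to a floor of 16, 10 and 14 among 3405 genes at 2 times the limit, 5 and 16 with the second probe of 1251 genes, 190 and 206 at 1.3-fold and 2 and 8 at 2-fold. Deposited intensities, neither corrected nor normalized, gave 24 and 9, 72.7% higher, with the median of all genes at 0.126. Nsun5 turned from 0.69 to -0.055 with its second probe, and the cause was not tested. The 95th percentile as the limit (43 and 51), the highest receptor probe (21 and 31), median scaling (37 and 44), quantile normalization of the DOC/salt arrays alone (33 and 48) and the mean of all probes (27 and 39) moved both counts by less than 1.5 times. The medians of the interferon, platelet, neutrophil, atrial and elastic fibre lists kept their side of the median of all genes under the 6 background and scaling alternatives, while lists near 0 (sarcomere, calcium handling, complex I, fatty acid oxidation, natriuretic, clock, proteasome, metallothionein) changed side in 1 or 2. With probes at 2 times the limit or more the median moved from -0.96 to -0.23 for platelet, 0.34 to 0.69 for neutrophil and 0.48 to 0.27 for atrial markers, and changed sign from -0.02 to 0.20 for natriuretic and from 0.15 to -0.23 for epicardial, adipocyte and neural genes. Receptor probes had medians of 84.0 and 92.9 on the DOC/salt arrays, against limits of 113.5 and 121.6, so the folds of genes near the limit depend most on the background correction.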
